A study of Homo sapiens with 8 samples.

Results

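The genes followed here were 10 regulators of transcription in T-cell acute lymphoblastic leukaemia (T-ALL). TLX3, TLX1, NKX2-5, TAL1, LYL1, LMO1, LMO2, HOXA9 and HOXA10 drive the disease when they are active in the wrong cell, and LDB1 is the adaptor through which TAL1 and the LMO proteins work. Their symbols were matched to the gene identifiers of the deposited tables, and each of the 10 had 1 identifier among the 63677 in the tables. RNA came from MOLT-4 and DND-41, established human T-ALL cell lines, harvested 8 h after addition of ACBI-1 at 100 nM or of DMSO, its solvent. The groups were ACBI-1 and DMSO in MOLT-4, and ACBI-1 and DMSO in DND-41, with 2 libraries each, 8 in all. The compound ACBI-1 links a group that binds the SMARCA2, SMARCA4 and PBRM1 bromodomains with one that recruits the VHL ubiquitin ligase, so that the bound proteins are degraded. These proteins belong to the BAF family of chromatin remodelling complexes. Each group stands for a single cell line and a single dose and time, and the labels name no genetic change in either line.

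TLX3, TLX1 and NKX2-5 are homeobox factors of the NKL class, silent in normal T-cell development and activated in T-ALL by chromosome rearrangements. In many T-ALL cases TLX3 comes under the control of the distal BCL11B region. TAL1 and LYL1 are basic helix-loop-helix proteins that bind the E-box letters CANNTG as partners of E proteins such as TCF3 and TCF12. LMO1 and LMO2 do not bind DNA and bridge TAL1 to LDB1, a widely expressed adaptor through which single-stranded DNA binding proteins join the complex. HOXA9 and HOXA10 are homeobox genes of early blood progenitors that are switched on together in some T-ALL.

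The promoters of TLX3, TAL1 and LYL1 are shown because TLX3 and TAL1 are the drivers that DND-41 and MOLT-4 express, and LYL1 is the closest relative of TAL1. Each is the RefSeq sequence of GRCh38.p14, from 250 bases before to 50 bases after the annotated start, 5′ to 3′ on the gene's strand. Capitals mark GATAA or its complement TTATC, the core letters of GATA factors, and CANNTG, the E-box, both searched on both strands. RefSeq promoters matched 8 of the 10 genes, with LMO2 and NKX2-5 not among them. The TLX3 window is chr5:171308998-171309297 on the plus strand. The TAL1 window, the upstream one of 2 annotated starts, is chr1:47232286-47232585 on the minus strand. The LYL1 window is chr19:13102809-13103108 on the minus strand.
TLX3: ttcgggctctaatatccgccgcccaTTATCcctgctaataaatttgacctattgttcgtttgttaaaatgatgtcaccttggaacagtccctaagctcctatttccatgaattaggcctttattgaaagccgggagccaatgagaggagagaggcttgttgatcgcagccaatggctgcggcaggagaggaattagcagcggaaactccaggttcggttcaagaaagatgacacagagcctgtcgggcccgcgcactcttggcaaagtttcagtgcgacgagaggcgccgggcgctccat
TAL1: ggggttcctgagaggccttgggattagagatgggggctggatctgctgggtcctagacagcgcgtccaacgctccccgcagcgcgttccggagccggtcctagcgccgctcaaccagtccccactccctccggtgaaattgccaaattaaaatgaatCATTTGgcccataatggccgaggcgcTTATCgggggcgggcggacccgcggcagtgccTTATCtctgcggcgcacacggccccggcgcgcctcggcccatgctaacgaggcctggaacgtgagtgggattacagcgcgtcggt
LYL1: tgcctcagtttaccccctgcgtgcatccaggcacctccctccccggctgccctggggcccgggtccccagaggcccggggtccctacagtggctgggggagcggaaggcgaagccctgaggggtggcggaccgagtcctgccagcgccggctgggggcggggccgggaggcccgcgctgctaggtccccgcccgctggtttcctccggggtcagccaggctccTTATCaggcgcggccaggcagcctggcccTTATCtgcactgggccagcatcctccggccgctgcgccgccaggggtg
TAL1 and LYL1 each hold 2 GATAA matches, at 67 and 35 bases before the start in TAL1 and at 27 bases before and 3 bases after it in LYL1. TLX3 holds 1, at 225 bases before the start. GATAA was found in 22.7% of the 35116 RefSeq promoters of the same length, and at least 2 matches in 4.80%. TAL1 has 1 E-box, CATTTG at 93 bases before the start, and TLX3 and LYL1 have none in the window, while 68.7% of all promoters have at least 1. The second annotated TAL1 start has neither motif. TLX3 also holds 2 CCAAT boxes, at 114 and 82 bases before the start. Of all promoters, 34.6% have at least 1 and 10.8% at least 2. These are matches of letters, not measured binding sites.

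Library totals ran from 19860759 to 20239888 counts over all genes. Levels are CPM, in which counts are divided by the effective size of the library, and each log2 fold change is the ACBI-1 level over the DMSO level ± its standard error. A gene with 0 counts in a library may still have had up to 3 counts at this depth, which is 0.137 to 0.165 CPM depending on the library, for counting error only. T-lineage marker genes reached 1 CPM for 13 of 13 in MOLT-4 and 12 of 13 in DND-41, PTCRA being the one below. Among markers of the erythroid and megakaryocyte lineages, which use TAL1 and LMO2 in normal blood formation, HBB, HBA1, HBA2, GATA1 and PF4 were at 0 counts in all 8 libraries. KLF1 had 8 to 13 counts in MOLT-4 and 3 to 6 in DND-41, and ITGA2B had 1 to 3 counts in every library. Whether the replicates were separate cultures is not said in the labels. The p-values therefore reflect only how far these libraries spread, which may be technical. In RNA from whole cultures, fewer cells with a transcript and less of it per cell cannot be told apart.

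In MOLT-4 the libraries of replicate 2 stood apart. They held transcripts of stromal cells, with COL1A1 at 207 counts in ACBI-1 replicate 2 and 0 in ACBI-1 replicate 1, against 1115 in DMSO replicate 2 and 42 in DMSO replicate 1. FN1, chosen after its values were seen, had 553 and 23 counts in the same ACBI-1 libraries and 3058 and 60 in the DMSO libraries. FN1 was not confined to these libraries. In DND-41, where COL1A1 had at most 2 counts, FN1 had 59 and 67 counts with ACBI-1 and 222 and 210 with DMSO. Summed over the 6 stromal and epithelial markers, the level was 0.741 to 14.4 CPM with ACBI-1 and 3.89 to 69.1 CPM with DMSO in MOLT-4. In DND-41 it was 0.0479 to 0.229 CPM with ACBI-1 and 0.145 to 0.190 CPM with DMSO. EPCAM and PECAM1 were at 0 in all 8 libraries. The ACBI-1 fold changes in MOLT-4 are therefore given with both replicate 2 libraries and, from a fit with DND-41, without them.

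Each line expressed its own driver, and apart from LDB1 the set split between them. MOLT-4 carried TAL1, LMO2 and a low level of HOXA10. DND-41 carried TLX3 and a trace of LYL1. LDB1 was the only one of the 10 genes well expressed in both. TLX1 and NKX2-5 were at or near 0 counts everywhere.

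**Figure D1:**
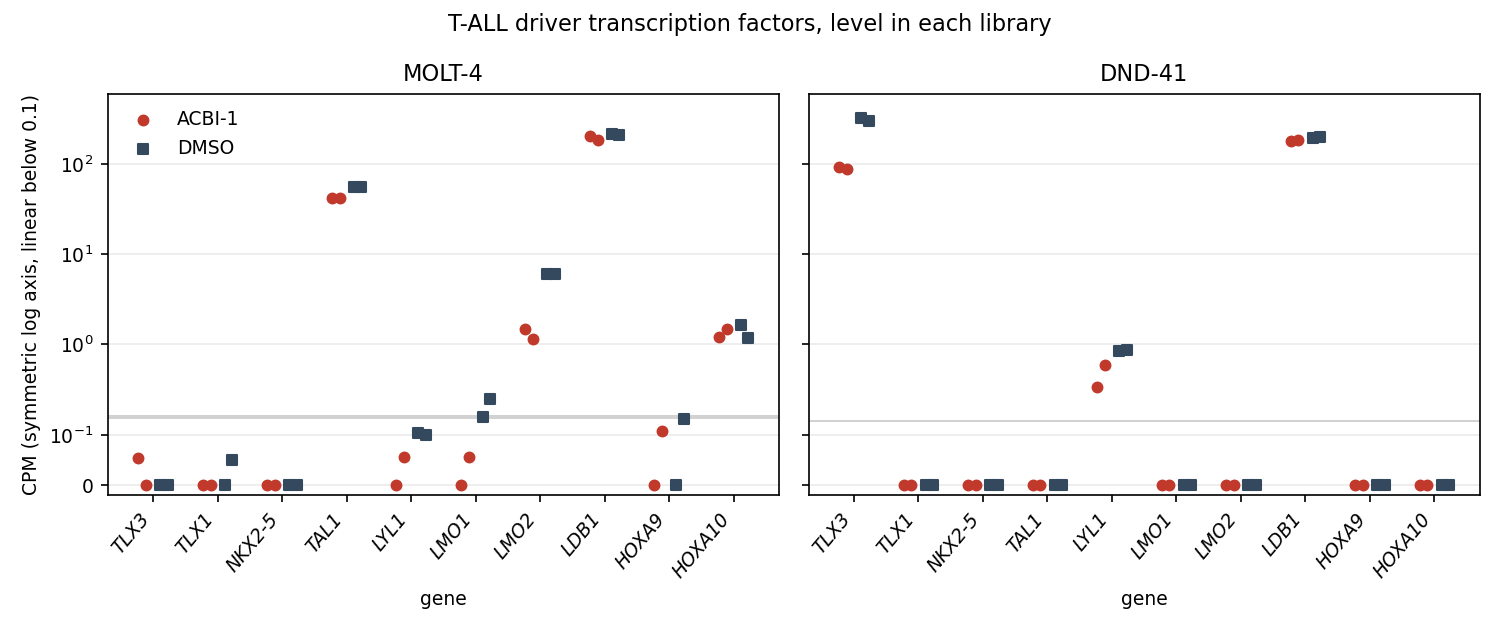
Level of the 10 driver genes in each library, in CPM on a symmetric log axis that is linear below 0.1, for MOLT-4 (left) and DND-41 (right). Circles are ACBI-1 and squares DMSO libraries, 2 of each, and the grey band is the level of 3 counts. TLX3 lies at 88.4 to 92.8 CPM with ACBI-1 and 300.4 to 318.7 CPM with DMSO in DND-41 and at the bottom of the axis in MOLT-4, while TAL1, LMO2 and HOXA10 do the opposite.

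TLX3, the homeobox driver of DND-41, had 1939 and 1934 counts in the ACBI-1 libraries and 6717 and 6217 counts in the DMSO libraries. Both ACBI-1 libraries lay far below both DMSO libraries. The level was 90.6 ± 3.12 CPM with ACBI-1 and 309.5 ± 12.9 CPM with DMSO (SD, n = 2 each). TLX3 fell by 1.76 ± 0.06 on the log2 scale, to 29.5% of the DMSO level (adjusted p = 5.77e-11, edgeR quasi-likelihood test with Benjamini-Hochberg adjustment over all genes tested). Only 1.90% of the 14008 genes tested in DND-41 had a lower fold change. The fall kept its size when any 1 library was left out, from -1.80 to -1.72.

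Per kilobase of exon, TLX3 stood above LDB1 in the DMSO libraries of DND-41 and close to it after ACBI-1. TLX3 was at 60.7 ± 2.09 CPM per kb with ACBI-1 and 207.3 ± 8.67 with DMSO (SD, n = 2 each). LDB1 was at 64.9 ± 0.351 CPM per kb with ACBI-1 and 70.6 ± 0.751 with DMSO. Exon lengths came from GENCODE release 29 by gene identifier, and the order of the genes was not tested. In MOLT-4, TLX3 had 1 and 0 counts with ACBI-1 and 0 and 0 counts with DMSO. In the DMSO libraries TLX3 was at least 2021-fold lower in MOLT-4 than in DND-41, with the MOLT-4 level set to the 3 counts a library that reads 0 may hold. A noncoding gene antisense to TLX3 shares 244 exon bases with it in that annotation and was not analysed here.

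The remaining NKL drivers gave almost no reads. TLX1, a relative of TLX3 that is rearranged in other T-ALL, had 0 counts in every library but MOLT-4 DMSO replicate 2, where it had 1. NKX2-5, a heart homeobox gene that some T-ALL rearrangements activate, had 0 counts in all 8 libraries. Neither gene could be tested.

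TAL1, the driver of MOLT-4, had 781 and 756 counts in the ACBI-1 libraries and 1068 and 1118 in the DMSO libraries. The groups did not overlap and the replicates of each group were close. The level was 41.5 ± 0.203 CPM with ACBI-1 and 55.8 ± 0.365 CPM with DMSO (SD, n = 2 each). TAL1 fell by 0.43 ± 0.07 on the log2 scale (adjusted p = 2.78e-05, edgeR quasi-likelihood test with Benjamini-Hochberg adjustment). In a fit with DND-41 that leaves out both replicate 2 libraries it was at -0.45 (adjusted p = 0.0133, edgeR), so the fall was as large without the libraries that held most of the stromal transcripts.

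TAL1 had 0 counts in all 4 DND-41 libraries. In the DMSO libraries it was at least 388.5-fold higher in MOLT-4 than in DND-41, with DND-41 set to 3 counts per library. A noncoding gene antisense to TAL1 shares 845 exon bases with it and had 6 counts in each MOLT-4 library and 0 in DND-41. If reads were counted without strand, those of the 2 genes could not be told apart where they overlap.

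LMO2, the bridging partner of TAL1, also fell in MOLT-4, with a larger fitted change than TAL1. It had 28 and 21 counts with ACBI-1 and 116 and 121 counts with DMSO. Every ACBI-1 library was below every DMSO library. The level was 1.32 ± 0.230 CPM with ACBI-1 and 6.05 ± 0.0548 CPM with DMSO (SD, n = 2 each), and it fell by 2.19 ± 0.22 on the log2 scale (adjusted p = 8.51e-08, edgeR). Without both replicate 2 libraries it was at -2.05 (adjusted p = 0.00168, edgeR). That the fold changes of LMO2 and TAL1 differ was not tested. DND-41 had 0 LMO2 counts in all 4 libraries, and in the DMSO libraries LMO2 was at least 42.1-fold higher in MOLT-4.

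LMO1, the alternative bridge, had 0 and 1 counts with ACBI-1 and 3 and 5 counts with DMSO in MOLT-4, and 0 counts in DND-41. The summed counts gave a ratio of ACBI-1 to DMSO of 0.132, with a 95% interval for counting error of 0.00298 to 0.986. At this depth it did not enter the test.

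LYL1 was a trace transcript of DND-41. It had 7 and 13 counts with ACBI-1 and 18 and 18 with DMSO, and it passed the filter on low counts through the DMSO libraries. The ACBI-1 libraries lay below the DMSO libraries but were far apart from each other. The log2 fold change was -0.86 ± 0.41 and missed the threshold (adjusted p = 0.111, edgeR), and it ranged from -1.34 to -0.52 when single libraries were left out. In MOLT-4 LYL1 had 0 and 1 counts with ACBI-1 and 2 and 2 with DMSO, with a ratio of 0.264 (0.00537 to 2.67, counting error only). In the DMSO libraries the 4 counts of MOLT-4 stood against 36 in DND-41, a ratio of 0.119 (0.0306 to 0.331).

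LDB1, the adaptor of the TAL1 complex and of many other LIM factors, was close to level. In MOLT-4 it had 3808 and 3295 counts with ACBI-1 and 4056 and 4236 with DMSO. The ACBI-1 libraries lay below the DMSO libraries, with replicate 2 the lower of the pair, and the log2 fold change of -0.15 ± 0.06 passed (adjusted p = 0.0426, edgeR). In DND-41 it had 3770 and 3978 counts with ACBI-1 and 4119 and 4106 with DMSO, and its log2 fold change of -0.11 ± 0.06 missed the threshold (adjusted p = 0.140, edgeR). The MOLT-4 call did not hold without ACBI-1 replicate 2 (adjusted p = 0.522), without DMSO replicate 1 (0.0693), with DESeq2 (0.131), with no filter on low counts (0.0749) or with all 8 libraries in 1 fit (0.0549). Without both replicate 2 libraries it was at -0.09 (adjusted p = 0.483, edgeR).

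The ACBI-1 effect on LDB1 differed between MOLT-4 and DND-41 by -0.02 ± 0.08 on the log2 scale and the difference missed the threshold (adjusted p = 0.920, edgeR interaction of line and treatment). In the DMSO libraries LDB1 was at 211.7 ± 1.73 CPM in MOLT-4 and 196.9 ± 2.10 CPM in DND-41 (SD, n = 2 each), a log2 difference of 0.10 ± 0.05 that missed the threshold (adjusted p = 0.0696, edgeR) and was 0.00092 when scaled by library size alone.

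HOXA10 was detected at a low level in MOLT-4 and not in DND-41, and HOXA9 was close to 0. HOXA10 had 23 and 27 counts with ACBI-1 and 31 and 24 with DMSO in MOLT-4, and 0 counts in the 4 DND-41 libraries. The ACBI-1 and DMSO values overlapped, and the log2 fold change was -0.06 ± 0.32 (adjusted p = 0.896, edgeR), or -0.43 in the fit with DND-41 that leaves out both MOLT-4 replicate 2 libraries (adjusted p = 0.637, edgeR). In the DMSO libraries HOXA10 was at least 9.82-fold higher in MOLT-4 than in DND-41. HOXA9 had 0 and 2 counts with ACBI-1 and 0 and 3 with DMSO in MOLT-4, and 0 counts in DND-41. Both libraries with HOXA9 counts were the replicate 2 libraries, which also held most of the stromal transcripts, and the single TLX1 count was in one of them. The part of those transcripts in these counts was not tested.

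**Figure D2:**
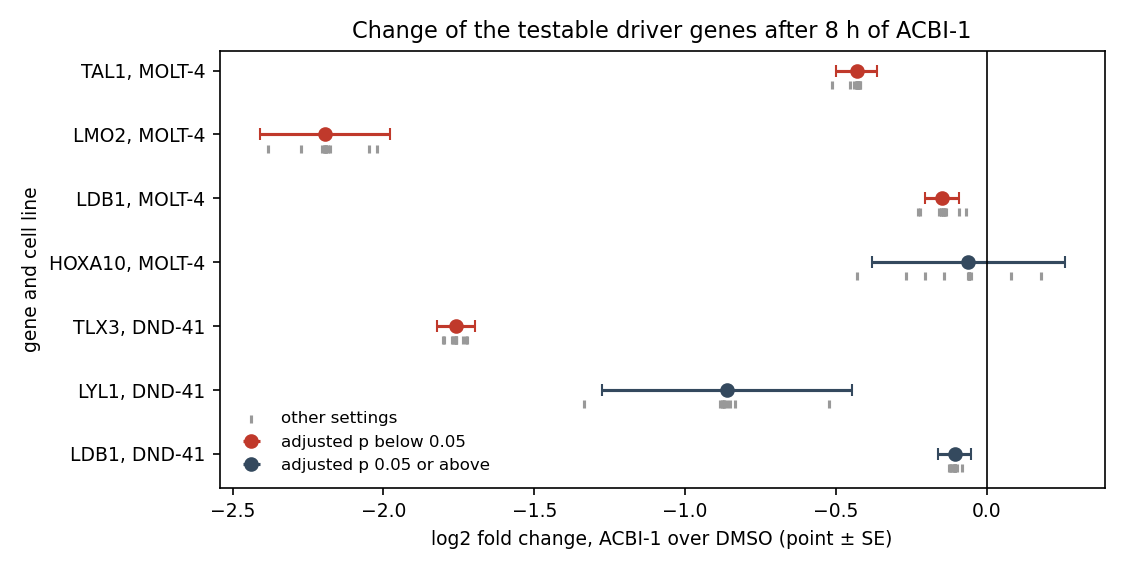
Log2 fold change of ACBI-1 over DMSO for each driver gene that entered the test, by cell line, with 1 SE as the bar. Grey ticks below each point are the values under the other settings. TLX3 in DND-41 at -1.76 and LMO2 in MOLT-4 at -2.19 lie far from 0, and LDB1 in both lines lies close to it.

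Counted together, 4 of the 10 genes entered the MOLT-4 test and 3 fell, and 3 entered the DND-41 test and 1 fell. None of the driver genes tested rose in either line by the edgeR test. In MOLT-4, 45.1% of all genes tested were called, 20.7% higher and 24.4% lower, a split of 2948 higher against 3477 lower that became 1781 against 3922 when scaled by library size alone. In DND-41, 43.2% were called, 20.0% higher and 23.2% lower. The 3 of 4 and 1 of 3 that fell are too few to set against these shares, and genes entered the test through the group in which they are high. Between the DMSO libraries, where 67.4% of genes were called (34.7% higher and 32.7% lower in MOLT-4), 6 of the 10 were tested, 3 were higher in MOLT-4 (TAL1, LMO2 and HOXA10) and 2 were lower (TLX3 and LYL1). In the test for a difference of the ACBI-1 effect between lines, 6 of the 10 entered and 0 were called. TLX3, TAL1, LMO2, HOXA10 and LYL1 are at 0 or near it in 1 of the lines, so only LDB1 could be compared with any precision. LYL1 gave a difference of -0.83 ± 1.22 (adjusted p = 0.749, edgeR interaction of line and treatment). Of all genes tested for that difference, 13.3% were called, 7.18% as higher and 6.17% as lower in MOLT-4.

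**Figure D3:**
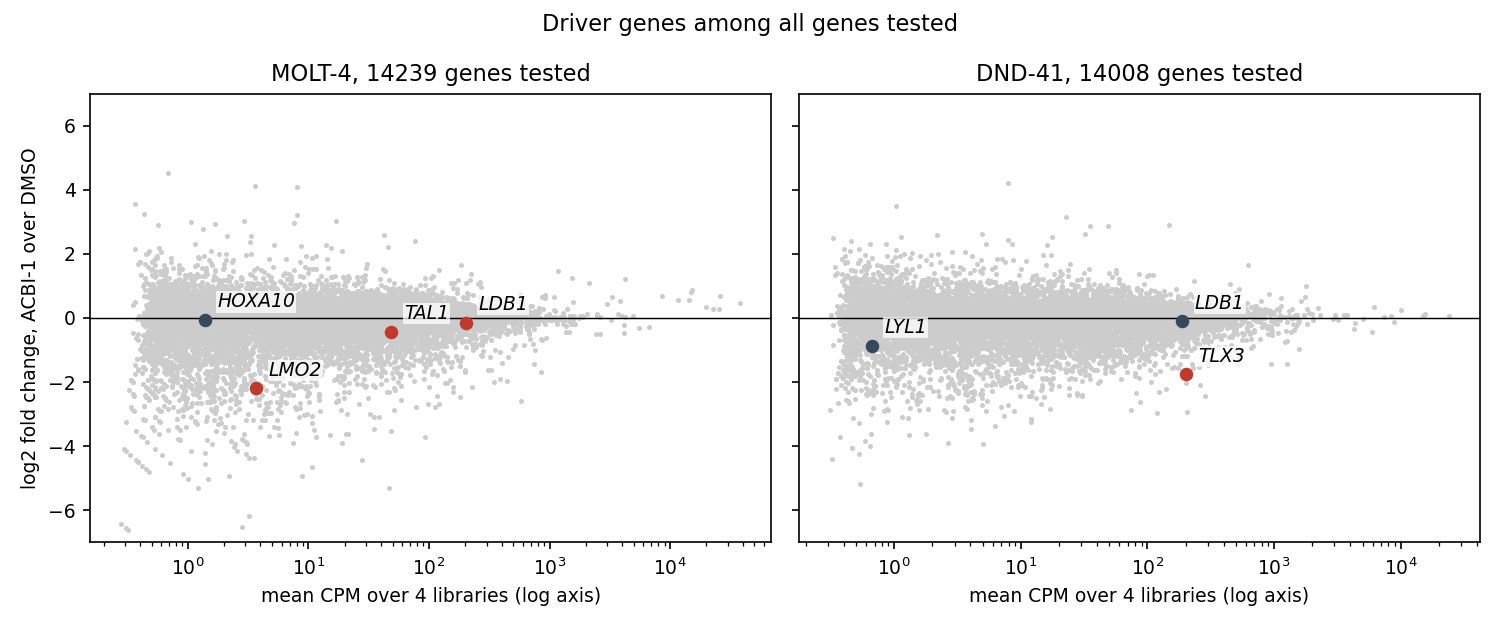
Log2 fold change of ACBI-1 over DMSO against mean CPM over 4 libraries on a log axis, for all genes tested in MOLT-4 (left, 14239) and DND-41 (right, 14008). Driver genes are labelled, red where the adjusted p was below 0.05 and dark blue where it was not. TLX3 lies at the lower edge of genes of its level, while TAL1 lies within the cloud.

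The partners of TAL1 moved in both directions. The list held 20 genes for E proteins, LIM and single-stranded DNA binding proteins, GATA factors, RUNX1, MYB and the inhibitors ID1 to ID3. In MOLT-4, 4 of 14 tested rose and 7 fell, against 20.7% and 24.4% of all genes tested, with a median log2 fold change of -0.17 against 0.00 over all genes. Without both replicate 2 libraries 3 of 15 rose and 5 fell, with a median of -0.25. In DND-41, 2 of 15 rose and 7 fell, against 20.0% and 23.2% of all genes, with a median of -0.22 against 0.01.

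SSBP2, a single-stranded DNA binding protein that stabilises LDB1, fell by 1.30 ± 0.06 in MOLT-4 and by 1.25 ± 0.08 in DND-41 on the log2 scale. In DND-41 its level was 43.9 ± 3.28 CPM with ACBI-1 and 105 ± 8.87 CPM with DMSO. ID1, which keeps E proteins off DNA, fell by 2.13 ± 0.21 in MOLT-4 and fell by 1.53 ± 0.28 in DND-41. These falls had adjusted p-values from 9.61e-13 to 0.00041 (edgeR). GATA3, the GATA factor of T cells that joins the TAL1 complex, fell by 0.90 ± 0.07 in MOLT-4 and by 0.59 ± 0.06 in DND-41. The MOLT-4 values without both replicate 2 libraries were -1.29 for SSBP2, -2.35 for ID1 and -0.88 for GATA3, with adjusted p-values of at most 0.000204 (edgeR).

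Some partners took opposite directions in the lines. ID3, another E protein inhibitor, was at 32.2 ± 2.27 CPM with ACBI-1 and 48.0 ± 1.5 CPM with DMSO in MOLT-4, and it fell by 0.58 ± 0.07. In DND-41 it was at 122.7 ± 3.70 CPM with ACBI-1 and 48.4 ± 7.10 CPM with DMSO, a rise of 1.36 ± 0.08. The difference, MOLT-4 minus DND-41, was -1.92 ± 0.12 (adjusted p = 2.84e-09, edgeR). CBFA2T3, a corepressor recruited by the complex, rose by 0.40 ± 0.05 in MOLT-4 and fell by 1.13 ± 0.07 in DND-41, with a difference of 1.54 ± 0.09 (adjusted p = 1.58e-09, edgeR). MYB, which binds with TAL1 at its enhancers, rose by 0.62 ± 0.07 in MOLT-4, and its value in DND-41 was -0.15 ± 0.06 (adjusted p = 0.0738, edgeR). TCF12, an E protein partner, rose in both, by 0.34 ± 0.05 in MOLT-4 and by 0.63 ± 0.06 in DND-41. Without both replicate 2 libraries the MOLT-4 values were -0.69 for ID3, 0.37 for CBFA2T3, 0.58 for MYB and 0.26 for TCF12, with adjusted p-values of at most 0.0366 (edgeR).

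Reported targets of TAL1 in T-ALL were mostly more abundant in MOLT-4. Of the 14 listed, 13 were tested between DMSO libraries, and 11 were higher in MOLT-4 and 1 lower, against 34.7% and 32.7% of all genes, with a median log2 difference of 1.41 against 0.01 over all genes. ALDH1A2, a retinaldehyde dehydrogenase, was at 221 ± 14.1 CPM in MOLT-4 DMSO libraries and 0.264 ± 0.0372 CPM in DND-41 ones.

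With ACBI-1 these targets again split. In MOLT-4, 3 of 13 rose and 5 fell, against 20.7% and 24.4% of all genes, with a median of -0.08, and both counts were the same without both replicate 2 libraries. In DND-41, 1 of 9 rose and 5 fell, against 20.0% and 23.2% of all genes, with a median of -0.26. ERG, an ETS factor of stem cells, was at 206 ± 6.52 CPM with ACBI-1 and 108 ± 0.843 CPM with DMSO in MOLT-4 (a rise of 0.92 ± 0.05), and ALDH1A2 rose by 0.47 ± 0.06. NFE2, a blood cell bZIP factor, was at 7.36 ± 0.825 CPM with ACBI-1 and 29.3 ± 4.61 CPM with DMSO in MOLT-4, and it fell by 1.99 ± 0.12. In DND-41 ARID5B, a DNA-binding chromatin cofactor, rose by 1.08 ± 0.23 at a low level. STAT5A, a cytokine signal transducer, fell there by 1.91 ± 0.23, also at a low level. It was at 1.70 CPM with ACBI-1 and 6.50 CPM with DMSO in DND-41, against 667 CPM in the DMSO libraries of MOLT-4. CDK6, a cell cycle kinase, fell by 0.64 ± 0.07 in MOLT-4 and by 0.86 ± 0.11 in DND-41. These calls passed with adjusted p-values of at most 0.00171 (edgeR). With both replicate 2 libraries left out, the MOLT-4 values were 0.94 for ERG, 0.44 for ALDH1A2, -2.05 for NFE2 and -0.59 for CDK6, with adjusted p-values of at most 0.0164 (edgeR).

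The homeobox genes listed with TLX and NKX fell in MOLT-4 with 1 exception among those tested. There 5 of 6 tested among 11 listed fell, with a median of -1.58, or -1.745 without both replicate 2 libraries. Of all genes, 24.4% fell. The 5 include MNX1, which entered the test through the DMSO libraries, so the count is a description and is not weighed against that share. MNX1, a motor neuron and pancreas homeobox gene, was at 0.592 ± 0.136 CPM with ACBI-1 and 5.44 ± 0.320 CPM with DMSO, and it fell by 3.19 ± 0.27. It had 13 and 9 counts with ACBI-1 and 108 and 105 with DMSO. It therefore entered the test through the DMSO libraries, in which it is high, and its log2 fold change is given as a description. MSX1, a craniofacial homeobox gene, was at 2.11 ± 0.0588 CPM with ACBI-1 and 10.8 ± 0.202 CPM with DMSO, and it fell by 2.36 ± 0.16. TLX2, the third TLX gene, fell by 1.80 ± 0.19. HHEX, a progenitor homeobox gene, fell by 1.36 ± 0.27 in MOLT-4 (adjusted p = 0.000422, edgeR) and by 2.28 ± 0.26 in DND-41 (adjusted p = 6.26e-06), where it was the 1 gene of the 11 that was tested. Without both replicate 2 libraries the MOLT-4 values were -3.04 for MNX1, -2.41 for MSX1, -2.17 for TLX2 and -1.32 for HHEX. The genes at or near 0 in both lines included NKX2-1, NKX2-2 and NKX2-3.

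The lines expressed different HOXA genes. From HOXA2 to HOXA13, MOLT-4 held HOXA10 and traces of others, and DND-41 expressed HOXA3, HOXA5, HOXA6 and HOXA7 and held 0 counts of HOXA9 and HOXA10. HOXA7 was at 3.94 ± 0.128 CPM per kb with ACBI-1 and 4.50 ± 0.212 CPM per kb with DMSO in DND-41. With ACBI-1, neither HOXA10 in MOLT-4 nor any of HOXA3 to HOXA7 in DND-41 passed the edgeR threshold.

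**Figure D4:**
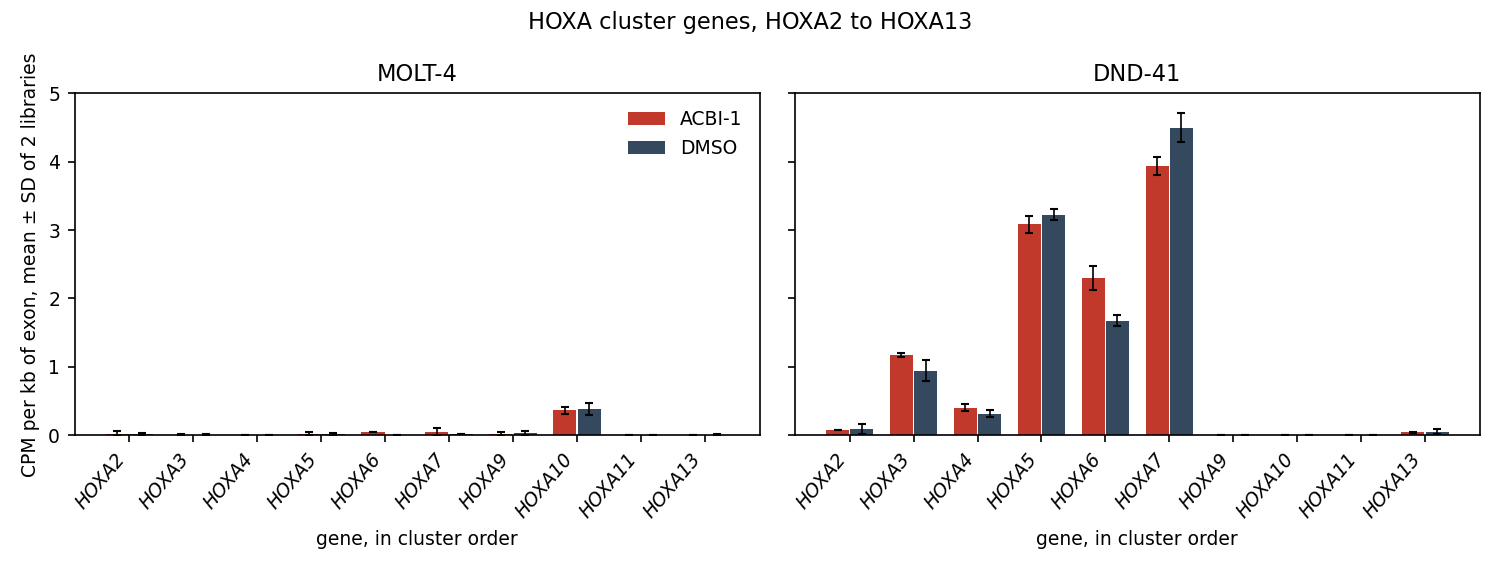
Level of the HOXA cluster genes from HOXA2 to HOXA13 in cluster order, in CPM per kb of exon, for MOLT-4 (left) and DND-41 (right), as mean ± SD of 2 libraries with ACBI-1 (left bar) and DMSO (right bar). The DND-41 levels lie in HOXA3 to HOXA7, and in MOLT-4 HOXA10 is at 0.365 CPM per kb with ACBI-1 and 0.380 with DMSO.

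Among the 24 HOXA cluster genes and cofactors, 3 of 10 tested rose and 2 fell in MOLT-4, and 3 of 14 rose and 4 fell in DND-41, with medians of -0.02 and 0.10. Of all genes, 20.7% rose and 24.4% fell in MOLT-4, and 20.0% rose and 23.2% fell in DND-41. In MOLT-4, 1 rose with library size alone, and without both replicate 2 libraries 1 rose and 0 fell at adjusted p below 0.05 with edgeR. In DND-41, 1 rose without DMSO replicate 1 and 2 fell without DMSO replicate 2. PBX4, a DNA-binding partner of HOX proteins, fell by 0.71 ± 0.14 in MOLT-4, where the value without both replicate 2 libraries was -0.60 and missed the threshold (adjusted p = 0.0714), and by 0.92 ± 0.17 in DND-41. PBX3 of the same family fell by 0.48 ± 0.10 in MOLT-4, and without both it was at -0.34 (adjusted p = 0.0785). DOT1L, the histone methyltransferase that HOXA-driven leukaemias depend on, rose by 0.37 ± 0.06 in MOLT-4, with 0.44 without both replicate 2 libraries (adjusted p = 0.00491, edgeR), and by 0.34 ± 0.07 in DND-41. MLLT10, a DOT1L partner, rose by 0.24 ± 0.06 in MOLT-4 and by 0.28 ± 0.07 in DND-41. Its MOLT-4 value was 0.16 both with library size alone (adjusted p = 0.124) and without both replicate 2 libraries (0.292), and its DND-41 value was 0.22 without DMSO replicate 1 (0.114). MLLT3, of the elongation complex, fell by 0.59 ± 0.07 in DND-41. MEIS1, a HOXA9 cofactor, was at 3.02 ± 0.0683 CPM with ACBI-1 and 3.47 ± 0.226 CPM with DMSO in MOLT-4 and at 0 counts in DND-41. Its MOLT-4 log2 fold change was -0.20, or -0.12 without both replicate 2 libraries, and missed the threshold either way.

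A list of 22 genes held neighbours of the driver loci and, from other chromosomes, the translocation partner BCL11B and the homeobox gene NKX2-6. In MOLT-4, 4 of 15 tested rose and 5 fell, against 20.7% and 24.4% of all genes, with a median of -0.05. In DND-41, 3 of 15 rose and 3 fell, with a median of -0.01. That is near the 20.0% and 23.2% of all genes and so is no result about the list. The DND-41 falls include RANBP17, which entered the test only through the DMSO libraries. The DND-41 count moved to 5 rises without ACBI-1 replicate 2. In MOLT-4 the counts moved to 2 rises with library size alone, to 3 falls with DESeq2, without ACBI-1 replicate 2 or without DMSO replicate 1, and to 2 falls without both replicate 2 libraries. Beside TLX3, RANBP17, a nuclear transport receptor chosen after its values were seen, was at 0.281 ± 0.00914 CPM with ACBI-1 and 1.10 ± 0.0142 CPM with DMSO in DND-41. It had 6 and 6 counts with ACBI-1 and 23 and 23 with DMSO, so it entered the test only through the DMSO libraries, in which it is high, and its log2 fold change of -1.94 ± 0.42 is given as a description. NPM1, further along the same arm, had a log2 fold change of 0.08 ± 0.07 in DND-41 (adjusted p = 0.383, edgeR).

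BCL11B, the T-cell factor gene whose regulatory region TLX3 can come under, fell in both lines, by 0.89 ± 0.06 in MOLT-4 and by 1.12 ± 0.07 in DND-41. It was at 31.0 ± 2.73 CPM with ACBI-1 and 68.3 ± 1.15 CPM with DMSO in DND-41. STIL, the immediate neighbour of TAL1 with which it can be fused, rose in both lines, by 0.37 ± 0.05 in MOLT-4 and by 0.38 ± 0.06 in DND-41. CMPK1, on the far side of STIL, fell by 0.17 ± 0.06 in MOLT-4 (adjusted p = 0.0150, edgeR), and was at -0.15 without both replicate 2 libraries (adjusted p = 0.269). Beside LMO2, CAPRIN1, CAT and NAT10 missed the threshold in both lines, with MOLT-4 values of -0.05 ± 0.06, 0.04 ± 0.05 and 0.12 ± 0.05, or -0.07, 0.08 and 0.10 without both replicate 2 libraries. Beside LYL1, NFIX fell by 0.51 ± 0.07 and TRMT1 rose by 0.34 ± 0.06 in DND-41. PPRC1, beside LDB1, rose by 0.32 ± 0.05 in MOLT-4. The MOLT-4 values without both replicate 2 libraries were -0.86 for BCL11B, 0.38 for STIL and 0.32 for PPRC1, with adjusted p-values of at most 0.0230 (edgeR). STC2, near NKX2-5, fell by 0.86 ± 0.28 in MOLT-4 at 1.30 ± 0.0362 CPM with ACBI-1 and 2.36 ± 0.380 CPM with DMSO (adjusted p = 0.0179, edgeR), and its value was -1.06 to -0.68 with DESeq2, without either ACBI-1 library, without DMSO replicate 1 and without both replicate 2 libraries, where it missed the threshold (adjusted p from 0.0638 to 0.223).

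**Figure D5:**
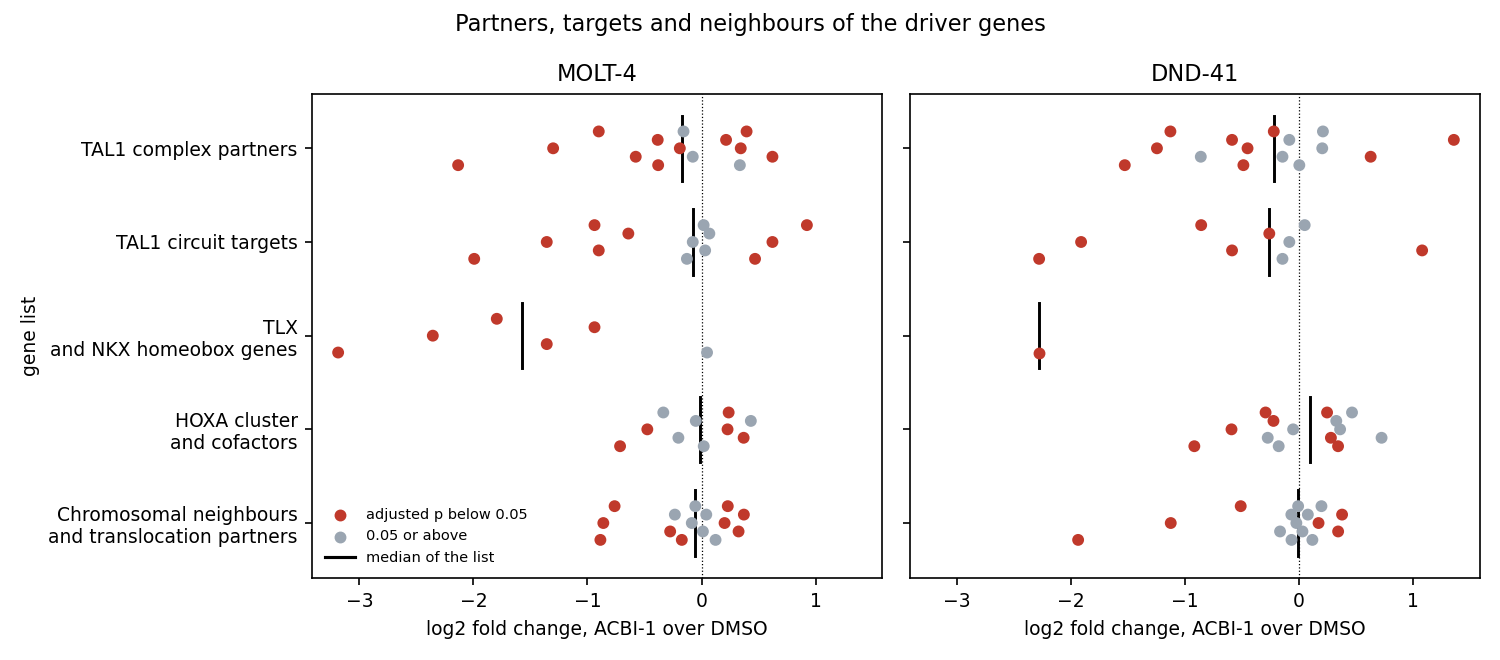
Log2 fold change of ACBI-1 over DMSO for each tested gene of the 5 lists, in MOLT-4 (left) and DND-41 (right), with the median of each list as a black line. Red points had adjusted p below 0.05. The TLX and NKX homeobox genes lie left of 0 in MOLT-4 except for 1, and the other lists spread on both sides.

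The genes whose profiles over the 8 libraries lay closest to those of the drivers were named by the smallest distance of centred log2 CPM. For TLX3 they were H19, an imprinted noncoding RNA, and CDKN2A, an inhibitor of cell cycle kinases, at distances of 2.12 and 2.29. H19 was at 52.7 and 51.0 CPM with ACBI-1 and 178.3 and 177.2 CPM with DMSO in DND-41 and below 0.2 CPM in MOLT-4. CDKN2A was at 472.0 and 478.6 CPM with ACBI-1 and 518.5 and 508.8 CPM with DMSO in DND-41. In MOLT-4 it was at most 0.845 CPM, so it shared with TLX3 mainly the difference between lines. For TAL1 they were NDST1, a heparan sulphate enzyme, and BEX1, at 0.255 and 0.388. For LMO2 they were MSX1 and NCS1, a neuronal calcium sensor, at 0.510 and 0.631. LYL1 lay nearest to BCL2, an inhibitor of apoptosis, and CHFR, at 0.583 and 0.627, LDB1 to MKL1 and LAMTOR1 at 0.10 and 0.113, and HOXA10 to C11orf45 and LINC00461 at 0.226 and 0.289.

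The transcripts of the degrader's own targets differed by small amounts, some of which passed the threshold. SMARCA4 was at 818 ± 0.988 CPM with ACBI-1 and 714 ± 24.7 CPM with DMSO in MOLT-4, and at 575 ± 13.1 CPM with ACBI-1 and 459 ± 1.64 CPM with DMSO in DND-41. SMARCA4 rose by 0.19 ± 0.06 in MOLT-4 (adjusted p = 0.0187, edgeR) and by 0.34 ± 0.06 in DND-41 (adjusted p = 0.000284, edgeR). The log2 fold change of SMARCA2 was 0.14 ± 0.08 in MOLT-4 (adjusted p = 0.152, edgeR) and -0.19 ± 0.07 in DND-41 (adjusted p = 0.0433, edgeR). That of PBRM1 was -0.16 ± 0.06 in MOLT-4 (adjusted p = 0.0288, edgeR) and 0.06 ± 0.07 in DND-41 (adjusted p = 0.485, edgeR). In MOLT-4 without both replicate 2 libraries SMARCA4 was at 0.22, SMARCA2 at 0.15 and PBRM1 at -0.08, and none passed the threshold (edgeR adjusted p from 0.0788 to 0.616). RNA does not read the degraded protein.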

How the data were processed

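Libraries were strand-specific and paired-end at 100 bases, per the labels' protocols. The deposited counts are whole numbers per gene, and STAR 2.5.2a, featureCounts, DESeq2 1.12.4 and hg19 are named in the submitters' processing notes. Not given in the sources used here were annotation and strand setting. Log2 fold changes, p-values and, as scores, mean normalized counts and test statistics were deposited by the authors in further tables, per the file headers.

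Genes were tested with edgeR 4.0.16 in R 4.3.3 on the deposited counts: filterByExpr at a minimum count of 10, TMM scaling, quasi-likelihood F test, Benjamini-Hochberg adjustment over all genes and a threshold of 0.05. Each line was fitted alone, the DMSO libraries across lines were fitted alone, and the difference of effects used all 8 libraries. CPM use effective library sizes of all 8 libraries, and SE is the absolute log2 fold change over the square root of F. Exon lengths and overlaps came from GENCODE release 29 by gene identifier, and promoters from RefSeq GRCh38.p14, so no coordinate was converted. Alternatives were other scalings and filters, DESeq2 1.42.0, a threshold of 0.01, a replicate block, 1 fit of all 8 libraries, and leaving out libraries; where 1 library remained in a group, its spread was assumed to equal that of the rest. The scripts were tested on simulated data. Python 3.11.15 with pandas 2.3.3, numpy 2.4.6, scipy 1.17.1 and matplotlib 3.10.9 made tables and plots.

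The members and lists were chosen with earlier results of these data known. Named are all 10 members, the 2 largest rises and 2 largest falls per list and line that were called and averaged at least 1 CPM, the 2 nearest profiles per tested member, and SMARCA2, SMARCA4 and PBRM1. Genes of the lists outside that rule (GATA3, CDK6, SSBP3, TLX2, RANBP17, CMPK1, the HOXA genes and others) were chosen after their values were seen, and some genes of the lists are not reported here. Replicate libraries had r of 0.996 to 0.998 and no 2 were identical.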

Additional observations from a re-analysis of the deposited data

Results flagged for a closer look

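None of the 10 driver genes met a criterion for a closer look. Among their listed partners, targets and neighbours, and the degrader's targets, the genes below differed between lines in their ACBI-1 effect by the interaction of line and treatment (MOLT-4 minus DND-41, log2 scale, edgeR adjusted p below 0.05, at more than 3 counts in every library). Of all genes tested, 13.3% passed that threshold without the condition on counts, so the genes below are not set against that share. Without both replicate 2 libraries, the MOLT-4 values not given above were -0.15 for TCF3, 0.14 for SSBP3 and 0.12 for ARID5B. For STAT5A, MLLT3 and TRMT1 they were 0.06, 0.06 and 0.08.

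TCF3 differed by 0.28 ± 0.08 (adjusted p = 0.0311, edgeR), with -0.19 in MOLT-4 and -0.45 in DND-41, and was called in 7 of 15 other settings.
TCF12 differed by -0.27 ± 0.08 (adjusted p = 0.0312, edgeR), with 0.34 in MOLT-4 and 0.63 in DND-41, and was called in 9 of 15 other settings.
SSBP3 differed by 0.45 ± 0.08 (adjusted p = 0.000689, edgeR), with 0.22 in MOLT-4 and -0.22 in DND-41, and was called in 14 of 15 other settings.
MYB differed by 0.78 ± 0.09 (adjusted p = 4.60e-06, edgeR), with 0.62 in MOLT-4 and -0.15 in DND-41, and was called in 15 of 15 other settings.
CBFA2T3 differed by 1.54 ± 0.09 (adjusted p = 1.58e-09, edgeR), with 0.40 in MOLT-4 and -1.13 in DND-41, and was called in 15 of 15 other settings.
ID3 differed by -1.92 ± 0.12 (adjusted p = 2.84e-09, edgeR), with -0.58 in MOLT-4 and 1.36 in DND-41, and was called in 15 of 15 other settings.
ARID5B differed by -1.03 ± 0.23 (adjusted p = 0.00533, edgeR), with 0.03 in MOLT-4 and, at a low level, 1.08 in DND-41, and was called in 15 of 15 other settings.
STAT5A differed by 1.996 ± 0.20 (adjusted p = 1.58e-06, edgeR), with 0.07 in MOLT-4 and, at a low level, -1.91 in DND-41, and was called in 15 of 15 other settings.
MLLT3 differed by 0.63 ± 0.12 (adjusted p = 0.00131, edgeR), with 0.02 in MOLT-4 and -0.59 in DND-41, and was called in 15 of 15 other settings.
TRMT1, beside LYL1, differed by -0.31 ± 0.08 (adjusted p = 0.0146, edgeR), with 0.01 in MOLT-4 and 0.34 in DND-41, and was called in 10 of 15 other settings.
PPRC1 differed by 0.31 ± 0.08 (adjusted p = 0.0185, edgeR), with 0.32 in MOLT-4 and 0.03 in DND-41, and was called in 9 of 15 other settings.
SMARCA2 differed by 0.35 ± 0.11 (adjusted p = 0.0346, edgeR), with 0.14 in MOLT-4 and -0.19 in DND-41, and was called in 6 of 15 other settings.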

How the results depend on the processing

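TLX3 in DND-41 and TAL1 and LMO2 in MOLT-4 fell under every alternative run, and LDB1 in MOLT-4 lost its call under those named above. Without 1 library at a time, TLX3 ranged from -1.80 to -1.72, TAL1 from -0.43 to -0.42, and the drivers called lower were 1 in DND-41, 2 to 3 in MOLT-4 and 2 in MOLT-4 over DND-41. No driver was called higher by edgeR with ACBI-1, and the stricter filter, which removes LYL1, left 1 driver lower in MOLT-4 over DND-41.

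The counts over all genes moved more. In DND-41, genes called higher were 2807, against 1736 with DESeq2, 1838 at 0.01 and 1745 to 3044 without 1 library (1745 and 1817 without DMSO replicates 1 and 2), and lower ones 2556 to 3499. In MOLT-4, higher ones were 2948, against 1781 with library size alone, 1765 with DESeq2, 1357 without both replicate 2 libraries and 2436 to 2912 without 1. Lower ones were 3477, against 2267 with DESeq2, 2232 without both and 2979 to 3388 without 1. For the difference between lines, 1112 were higher, against 499 with library size alone (which moved the median of all genes to -0.12), 661 with DESeq2, 440 without both, 619 at 0.01 and 699 to 1207 without 1. Another 956 were lower, against 630, 504, 559 and 621 to 989 (DESeq2, without both, 0.01, without 1). MOLT-4 over DND-41 gave 4824 to 5082 higher and 4263 to 4727 lower without 1 library. The cause was not tested.

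Same-numbered libraries deviated together with r of 0.168 in DND-41 and 0.312 in MOLT-4, but with 2 pairs a line and no label that ties them, they share only a number. With the replicate block TLX3 was at -1.76, TAL1 at -0.43 and LDB1 in MOLT-4 at -0.15 (adjusted p = 0.0156), no driver call changed, and TAL1 partners called higher in DND-41 became 4.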

Other observations

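In the authors' deposited table for MOLT-4, the log2 fold changes of TAL1 and LMO2 are 0.43 and 2.19, with the opposite sign to ACBI-1 over DMSO. The sign was opposite for 6425 of the 6425 genes called in MOLT-4, against 0 of 6056 in DND-41, where the authors' deposited table gives -1.76 for TLX3. The headers state no direction.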
